A study of Junonia coenia with 38 samples.

Results

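Wings of the buckeye butterfly Junonia coenia were compared between the pupa at 72 h after pupation and the 5th larval instar, in the forewing and in the hindwing, by RNA-seq. The comparison passes over the prepupa, the stage between both, and asks which transcripts had come back to their larval level by 72 h and which kept a changed level. It uses 12 of the 24 wing libraries in the count table, of 38 libraries in the series, in 4 groups of 3: 5th instar forewing, 5th instar hindwing, 72 h forewing and 72 h hindwing. The 6 prepupal libraries were used to follow changes in between, and the late pupa was used as a further level. The labels of the late pupa differ on its age, with 6 days after pupation in one place and d7 in the titles. All groups were whole wings of animals raised at about 27C. The labels of these libraries name no strain, sex, genotype or treatment, and do not say whether libraries came from single or pooled animals, so p-values measure the spread between these libraries. The 72 h libraries were taken to be the columns headed d3, matched by wing and number.

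In a caterpillar the wings are flat epithelial discs inside the body, which grow and are patterned during the last larval instar. A pulse of the steroid hormone ecdysone ends larval life: the discs turn outward in the prepupa, cuticle is laid down, and in the pupa the wing, a sheet of an upper and a lower epithelium, forms rows of scale cells and socket cells, which later make the pigmented scales. Ecdysone acts through its receptor EcR on early regulators and then on stage-specific genes, so that a transcript may answer to the pulse and subside, or move to a new level for pupal life.

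Counts were given for 19234 gene models on 811 contigs, and 13282 models had enough counts to be tested. The files give each model as a contig with its first and last position and no gene name, so models are written here as contig:first-last, and roles of single genes, exons and the labelled tissue's marker genes were not analysed here. Library totals ranged from 8678215 to 21284939 counts in the 5th instar and from 5795618 to 13355152 counts at 72 h. The 72 h libraries numbered 3 stood apart. Between the counts of a 72 h pair of one wing, chi-square per degree of freedom was 71.2 to 78.1 for numbers 1 and 2 and 224 to 391 for pairs with number 3, against 31.4 to 64.2 in the 5th instar. Number 3 lay more than 4-fold below both other libraries in both wings in 149 of the 3008 models that rose in both wings (4.95%) and in 3 of the 3379 that fell (0.0888%), against 242 of all 13282 tested (1.82%). It lay as far above both in 25 risen, 0 fallen and 55 of all tested models. Where leaving out number 3 moved the fold change of a named model by over 1.5 times, this is said beside it. Levels are given as CPM, the count rate relative to the library total scaled by TMM, and tests are edgeR quasi-likelihood tests with Benjamini-Hochberg adjustment, called at an adjusted p below 0.05.

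A majority of the tested models had a different level in the pupal wing. In forewings 7268 models were called between the 5th instar and 72 h, 54.7% of those tested, of which 3403 (25.6%) were higher and 3865 (29.1%) lower at 72 h. In hindwings 7172 models were called (54.0%), 3374 higher (25.4%) and 3798 lower (28.6%). Rises were larger than falls, by TMM and in every alternative run: the median log2 fold change was 2.10 and 2.11 for models called higher and −1.56 and −1.64 for models called lower, forewing first, and −0.08 and −0.12 over all models tested. A log2 rise of 5 or more was called for 578 models in forewings and 588 in hindwings, and a fall of that size for 100 and 209 (171 in forewings without 72 h forewing number 2, and 212 and 363 with library totals alone). Whether more models fell than rose depended on the scaling: with DESeq2 size factors in place of TMM, which moved the median model by 0.13 and 0.14, 3725 rose and 3450 fell in forewings, and 3740 rose and 3321 fell in hindwings. With library totals alone, which moved the median by −0.80 and −1.04, 1901 models rose and 6583 fell in forewings, and 1652 rose and 7525 fell in hindwings. In whole wings, fewer cells of a type and less RNA per cell cannot be told apart.

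The wings changed together. Both wings called 3008 models higher (22.6% of those tested) and 3379 lower (25.4%). The shared risen models were 88.4% of the forewing list and 89.2% of the hindwing list, and the shared fallen models 87.4% and 89.0%. Wings of 1 stage and number varied together, so the lists are not independent. A single model was called in opposite directions, and 1664 were called in exactly 1 wing. Models whose 3 CPM values at 72 h did not overlap the 3 larval values numbered 7858 in forewings (59.2% of those tested) and 7640 in hindwings (57.5%). Of the models not called, 6014 and 6110, the 90% interval of the log2 fold change lay within −1 to 1 for 2413 in forewings and 2442 in hindwings, and for the others neither a change nor its absence was shown at this spread.

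**Figure D1:**
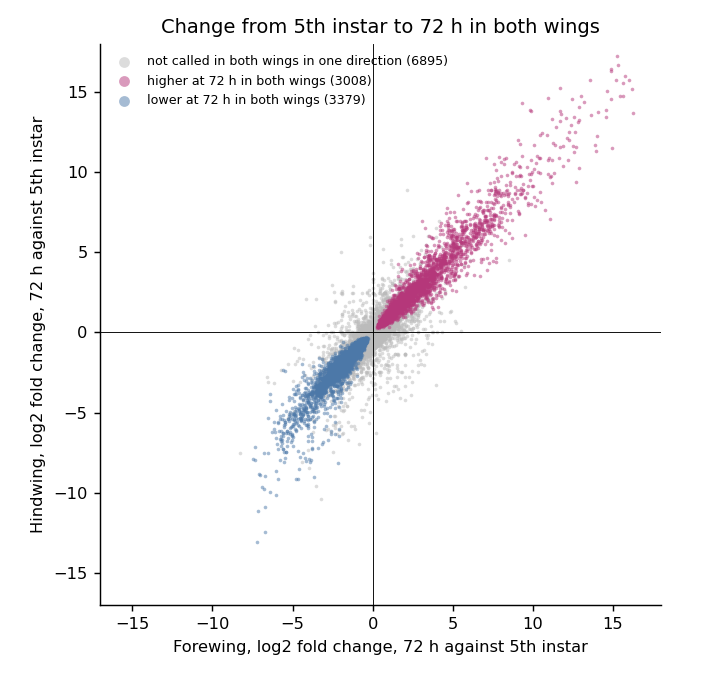
Log2 fold change from the 5th instar to 72 h in forewings (x axis) and hindwings (y axis), 1 point for each of 13282 models. The 3008 models higher and 3379 models lower in both wings lie along the diagonal, and the rises reach further from 0 than the falls.

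In terms of reads the change was larger than in number of models. The 3008 risen models held 13.1% ± 0.436 (SD, n = 3) of all counts of the larval forewing and 14.1% ± 0.224 of those of the larval hindwing. At 72 h they held 68.0% ± 3.63 and 72.2% ± 3.31. The 3379 fallen models went from 46.5% ± 0.888 and 45.4% ± 0.606 to 10.4% ± 1.58 and 8.64% ± 1.38. In the prepupa the fallen models were already at 15.9% ± 0.582 in forewings and 23.4% ± 1.80 in hindwings, while the risen models were at 23.4% ± 1.20 and 21.7% ± 1.51. These models were chosen by the same counts, so the shares are a description. The percentages are not scaled by TMM, but the models were chosen by calls on the TMM scale.

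**Figure D2:**
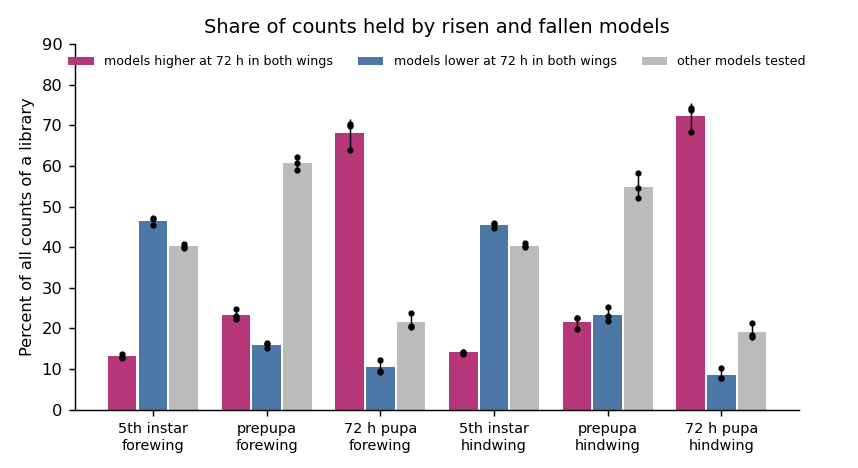
Percent of all counts of a library (y axis) held by the models that rose, that fell and by the other tested models, for each stage and wing; bars are means of 3 libraries, error bars the SD and points the libraries. The risen models hold 13.1% to 14.1% in the 5th instar and 68.0% to 72.2% at 72 h.

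The 4 largest rises, by the mean log2 fold change of the wings among models with at least 10 larval counts in each wing, lay in 1 stretch of the genome. On contig 000238F, 17 tested models in a row, from position 168374 to 582415 (414 kb), were called higher at 72 h in both wings. In 13 of them the log2 fold change was 10 or more in both wings, as it was in 54 models elsewhere. Together they held 0.00772% ± 0.000299 of larval forewing counts and 0.00837% ± 0.00117 of larval hindwing counts. At 72 h they held 19.1% ± 0.997 of the forewing counts and 21.4% ± 0.668 of the hindwing counts, so that the run's share varied little between libraries, number 3 included. In the prepupa its share was 0.00818% ± 0.00511 and 0.00570% ± 0.00259, and in the late pupa 0.00985% ± 0.00534 and 0.00855% ± 0.00259. On the TMM scale the sum of the 17 models was 46.4 CPM in larval, 138 CPM in prepupal and 109 CPM in late pupal forewings, and 47.7, 65.9 and 90.9 CPM in hindwings. The model first in order made up 32.1 and 33.3 CPM of the larval sums. Of the 17 models, 8 were called higher in the prepupa than in the 5th instar in forewings and 3 in hindwings (against 26.0% and 21.4% of all models tested), and 1 was called lower in each (against 29.9% and 24.4%). The spans of these models, 795 to 24430 bases, overlap no other model, and whether they are copies of one another was not analysed here.

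Within the run, 5 models are described by library. The most abundant, 000238F:382989-387955, stood at 2.05, 0.871 and 1.18 CPM in larval forewings and 79281, 79612 and 68199 CPM at 72 h. In hindwings it stood at 2.68, 1.79 and 0.110 CPM and then at 118886, 99347 and 91475 CPM. All 72 h libraries lay above all larval ones by several orders of magnitude (log2 15.76 ± 1.61 and 16.03 ± 1.62, edgeR adjusted p = 1.57e-07 and 1.35e-07, forewing first; 16.68 in hindwings without larval hindwing number 1). In the prepupa it was already called higher in forewings, at a mean of 33.4 CPM (log2 4.62 ± 1.07, adjusted p = 0.00126), but not in hindwings, at 5.49 CPM (log2 1.84 ± 0.97, adjusted p = 0.132), and in the late pupa it stood at 26.4 and 15.8 CPM. It made up 7.16% ± 0.265 of forewing and 8.59% ± 0.398 of hindwing counts at 72 h. The second, 000238F:575512-582415, was at 0.854 CPM ± 0.286 in larval forewings and 1.33 CPM ± 1.11 in larval hindwings, and reached 74697, 59707 and 35780 CPM in the former and 89780, 74219 and 61303 CPM in the latter at 72 h. Its log2 fold changes were 16.02 ± 1.57 and 15.77 ± 1.56 (edgeR adjusted p = 9.23e-08 and 9.87e-08; 16.46 in hindwings without larval hindwing number 1). The groups were again far apart in both wings.

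The other 3 differed in how even their 72 h libraries were. Larval levels of 000238F:397096-402452 were 0.380 CPM ± 0.156 in forewings and 0.497 CPM ± 0.148 in hindwings, and 72 h levels 15060, 22572 and 23759 CPM and 3825, 13395 and 24262 CPM (log2 15.64 ± 1.38 and 14.74 ± 1.35, edgeR adjusted p = 2.40e-08 and 3.61e-08; 14.06 in hindwings without 72 h number 3). For 000238F:544850-569279, the longest model of the run, larval levels of 0.303 CPM ± 0.0892 and 0.259 CPM ± 0.228 became 11183 CPM ± 3245 and 15148 CPM ± 3793 (log2 15.16 ± 1.35 and 15.73 ± 1.37, edgeR adjusted p = 2.73e-08 and 2.04e-08). Least even of the 5 was 000238F:300560-303753, at 11368, 6294 and 3.83 CPM in 72 h forewings and 42291, 18043 and 203 CPM in hindwings, from 0.202 CPM ± 0.125 and 0.227 CPM ± 0.188. Number 3 was far below the others in both wings but above every larval library. The log2 fold change was 14.88 ± 2.46 in forewings, 15.48 without number 3 and 13.98 without number 1, and 16.31 ± 2.54 in hindwings, 15.16 without number 1 and 17.14 without larval hindwing number 2 (edgeR adjusted p = 4.82e-05 and 2.47e-05).

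**Figure D3:**
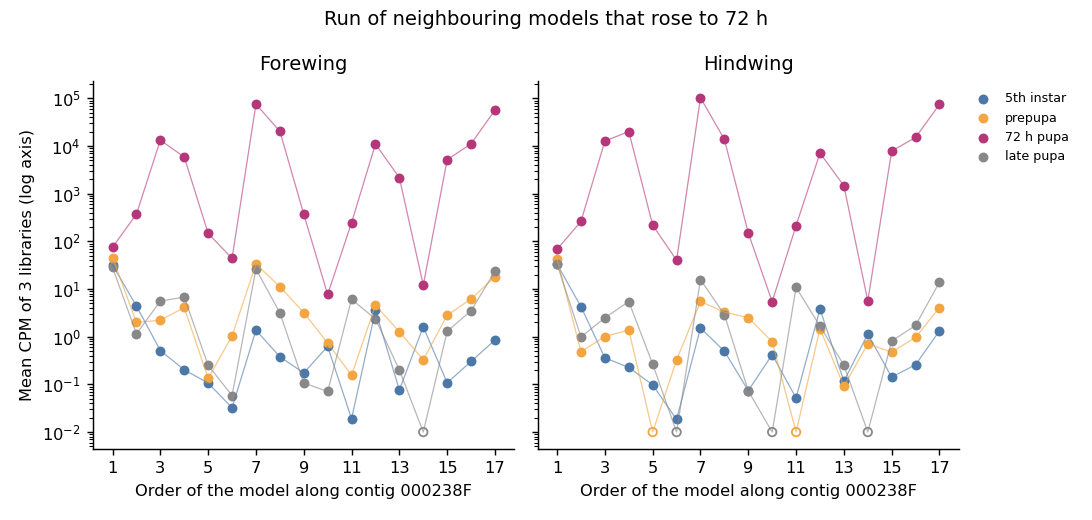
Mean CPM of 3 libraries (y axis, log scale) of the 17 models of the run, in their order along contig 000238F (x axis), for 4 stages in forewings and hindwings; open circles at 0.01 stand for a mean of 0. At 72 h most models stand orders of magnitude above the other 3 stages, up to 75697 CPM in forewings and 103236 CPM in hindwings, while models 1, 10 and 14 change little by comparison.

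Some transcripts were near absent in the larval wing. In 22 models all 6 larval libraries had 0 counts and both wings were called higher at 72 h, and in 11 models all 6 libraries of 72 h had 0 counts and both wings were called lower. The 3 models with the highest 72 h level among those with 3 or fewer larval counts in each wing were chosen after their values were seen. The model 000125F:241107-245325 had 1 count in all larval forewings and 0 in larval hindwings, and stood at 555, 344 and 10.3 CPM in 72 h forewings and 1013, 606 and 34.9 CPM in hindwings. This is a ratio of 20388 in forewings (95% counting interval 3658 to 805384) and at least 9792-fold higher in hindwings, where 3 counts over the larval group were taken as the floor (edgeR adjusted p = 7.95e-06 and 4.16e-06). Number 3 was the lowest in both wings, and without it the fitted log2 fold change in hindwings was 16.30 in place of 15.74.

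The model 000008F:873943-874911 had 2 counts in each larval wing and stood at 234, 216 and 408 CPM in 72 h forewings and 533, 321 and 348 CPM in hindwings. The ratios were 10258 (2839 to 84716) and 12783 (3538 to 105571), and here number 3 was not low. In the prepupa it still had 6 counts in forewings and 2 in hindwings. By contrast 000144F:27364-39372, whose span overlaps another model so that its counts are uncertain, was already at 12.0 CPM ± 1.65 and 4.70 CPM ± 1.88 in the prepupa. It had 3 larval counts in forewings and 0 in hindwings, and reached 162, 200 and 149 CPM and 128, 145 and 164 CPM at 72 h, a ratio of 4091 (1399 to 19846) and at least 3177-fold higher. All 3 stayed called when any 1 library was left out, but the sizes are loose. For 000125F:241107-245325 the fitted forewing value of 13.59 became 12.93 without larval number 3 and 12.83 without 72 h number 1, and its hindwing value 14.98 without 72 h number 1. That of 000008F:873943-874911 was 12.11 in forewings without larval number 3, in place of 12.85. The forewing count of 000125F:241107-245325 lay in larval number 1, and both counts of 000008F:873943-874911 in each wing lay in larval number 2. Without these libraries 0 larval counts were left, and the fitted values (14.86, then 14.74 and 15.21) depend on the prior count and are no bounds. The forewing value of 000144F:27364-39372 was 12.46 without larval number 2, in place of 11.67.

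The 4 largest falls were taken, by the mean log2 fold change of the wings, among models with at least 10 counts in each wing at 72 h. A mean log2 CPM of at least 3 over the 12 libraries was also needed, so the choice favoured models abundant in larval discs. Models with fewer counts left, some with larger fitted falls, are described further below. The model 000014F:1675881-1678464 stood at 4123, 2820 and 2310 CPM in larval forewings and 4214, 3566 and 2912 CPM in larval hindwings, the highest mean larval level among the models that fell in both wings. At 72 h it was at 8.23, 47.3 and 30.8 CPM and at 3.94, 6.25 and 10.8 CPM, with no overlap (log2 −6.74 ± 0.71 and −8.98 ± 0.78, edgeR adjusted p = 2.08e-07 and 1.90e-08). The wings took different courses in the prepupa, with 376 CPM ± 233 in forewings, a called fall (log2 −3.03 ± 0.59, adjusted p = 0.000259), and 2223 CPM ± 1151 in hindwings (log2 −0.68 ± 0.55, adjusted p = 0.331). The difference between these 2 prepupal changes was not tested.

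The model 000003F:5477416-5496176 was not called between larva and prepupa, and on the TMM scale their values overlapped. The log2 change was −0.07 ± 0.98 in forewings and −0.10 ± 0.98 in hindwings (edgeR adjusted p = 0.955 and 0.945). The intervals of the fit, −1.77 to 1.62 and −1.80 to 1.59, reached beyond −1 to 1, so an equal level was not shown. As a share of all counts the model was lower in the prepupa. It had 67529 larval and 19479 prepupal counts in forewings, and 61589 and 26717 in hindwings. It stood at 913, 1052 and 896 CPM in larval and 835, 929 and 954 CPM in prepupal forewings, and in hindwings at 1011, 1002 and 854 CPM and then 791, 1108 and 767 CPM. At 72 h it was at 0.113, 20.3 and 1.07 CPM in forewings and 0.563, 5.21 and 0.824 CPM in hindwings, number 2 being highest in both wings. The log2 fold change from the 5th instar was −7.04 ± 1.28 in forewings and −8.89 ± 1.41 in hindwings (edgeR adjusted p = 0.000130 and 3.14e-05), and without number 2 of the wing it was −10.57 and −10.38.

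Both remaining models among the 4 falls chosen in this way had begun to fall in the prepupa. The model 000001F:2757876-2775390 went from 171 CPM ± 64.1 and 136 CPM ± 65.4 to 12.3 CPM ± 4.21 and 15.9 CPM ± 9.12 in the prepupa. At 72 h it was at 0.789, 1.87 and 0.0890 CPM and at 1.27, 0.625 and 0 CPM (log2 −7.50 ± 0.82 and −7.89 ± 0.88, edgeR adjusted p = 3.66e-07 and 4.34e-07). It moved to −8.67 without 72 h forewing number 2, and in hindwings to −9.30 without number 1 and −7.09 without number 3. The model 000047F:794316-795506 went from 98.4, 99.2 and 89.3 CPM to 0.902, 1.71 and 1.78 CPM in forewings, and in hindwings from 124, 114 and 90.3 CPM to 0.985, 0.834 and 0.824 CPM, with little spread at either stage (log2 −6.00 ± 0.40 and −6.94 ± 0.43, edgeR adjusted p = 7.06e-10 and 3.26e-10).

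In 3 models chosen after their values were seen, 3 or fewer counts were left in each wing at 72 h. The model 000106F:1267042-1271563 stood at 17.0 CPM ± 3.41 in larval forewings and 13.1 CPM ± 2.32 in hindwings, 178 times (61 to 863) and 306 times (55 to 12098) its 72 h rate. The model 000024F:2970305-2971544 stood at 8.47, 14.2 and 10.5 CPM and at 8.29, 12.5 and 8.87 CPM, 121 times (41 to 587) and 231 times (41 to 9151) its 72 h rate. In both models the single 72 h count of the hindwing lay in number 3, without which 0 counts were left and the fitted log2 fold changes of −10.35 and −9.94, in place of −7.96 and −7.55, depend on the prior count. In forewings 000106F:1267042-1271563 moved from −7.35 to −8.34 without 72 h number 1 and to −6.72 without number 2, and 000024F:2970305-2971544 from −6.77 to −7.54 without number 2. The third, 000033F:1690606-1693379, rested on 1 larval library in each wing: it stood at 0.273, 10.5 and 0.402 CPM in larval forewings and 39.4, 0.662 and 1.93 CPM in hindwings. Its call (edgeR adjusted p = 0.0145 and 0.00440) ended without larval forewing number 2 (0.300), without larval hindwing number 1 (0.0931) and, in forewings, in the fit of the compared groups alone (0.0607).

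The next most abundant fallen models of the larva changed far less than 000014F:1675881-1678464. The model 000019F:2536686-2551372, whose span overlaps another, stood at 2998 CPM ± 277 in larval and 1855 CPM ± 158 in pupal forewings, and in hindwings at 2597 CPM ± 198 and then 1706 CPM ± 320 (72 h against 5th instar, log2 −0.69 ± 0.20 and −0.61 ± 0.20, edgeR adjusted p = 0.00693 and 0.0160). Close to it in abundance, 000016F:1334572-1337350 stood at 2747 CPM ± 137 and then 1588 CPM ± 238 in forewings, and in hindwings at 2329 CPM ± 65.8 and then 1623 CPM ± 294 (log2 −0.79 ± 0.21 and −0.52 ± 0.21, edgeR adjusted p = 0.00414 and 0.0457). The groups did not overlap in any of these 4 comparisons. The hindwing calls were weak: that of 000019F:2536686-2551372 ended without 72 h hindwing number 2 (0.0847), and that of 000016F:1334572-1337350 with 9 of the 12 libraries left out in turn (0.0526 to 0.134), and both ended with DESeq2 size factors (0.0554 and 0.152) and in the compared groups alone (0.0619 and 0.103). That of 000016F:1334572-1337350 also ended with the DESeq2 Wald test (0.0752) and without both libraries numbered 3 (0.117).

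To follow models through the stage in between, those called between the 5th instar and the prepupa with a log2 fold change of at least 1 in size were sorted by where they stood at 72 h. There were 5748 in forewings (43.3% of those tested) and 4270 in hindwings (32.1%). These numbers depend on the scaling. By TMM 2765 rose and 2983 fell in forewings, and 2264 rose and 2006 fell in hindwings. With library totals alone 1313 rose and 8023 fell in forewings, and 1370 rose and 6625 fell in hindwings. Returned models were called back towards the larva from the prepupa to 72 h, and the 90% interval of their log2 difference between 72 h and the 5th instar lay within −1 to 1. Lasting models were called at 72 h against the 5th instar in the direction of the prepupal change with a log2 fold change of at least 1 in size, and crossed models in the opposite direction. The rest could not be placed. All these contrasts share the larval libraries, so the counts are descriptions.

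A lasting change was the most frequent outcome in both wings. In forewings 2925 models were lasting (50.9% of those changed by the prepupa), 705 had returned (12.3%), 407 had crossed (7.08%) and 1711 were not placed (29.8%). In hindwings 2191 were lasting (51.3%), 403 had returned (9.44%), 390 had crossed (9.13%) and 1286 were not placed (30.1%). Prepupal falls were placed as lasting more often than prepupal rises. Of 2983 forewing falls 56.7% were lasting and of 2765 rises 44.6%. Of 2006 hindwing falls 58.2% were lasting and of 2264 rises 45.2%. The share placed as lasting was also higher for falls in every alternative run, with no test of the difference. Rises were more often not placed, 964 of them against 747 falls in forewings and 818 against 468 in hindwings. Whether these models lasted is not shown, so the shares do not decide which direction lasted more often. The same class and direction in both wings was found for 858 lasting rises, 967 lasting falls, 129 returned rises, 121 returned falls, 168 rises and 99 falls that crossed. The numbers of returned models depend on the margin: with −0.5 to 0.5 in place of −1 to 1 they were 99 and 60, and with −1.5 to 1.5 they were 1194 and 697.

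**Figure D4:**
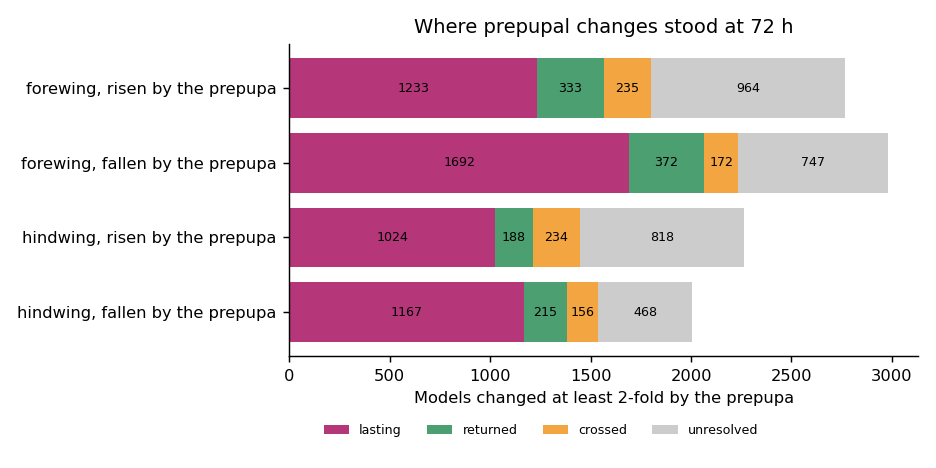
Number of models changed at least 2-fold by the prepupa (x axis) in each wing and direction, divided by their state at 72 h; unresolved stands for models that could not be placed. Lasting changes take 1233 of the forewing rises and 1692 of the forewing falls, and returned models 333 and 372.

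Lasting changes were divided by what happened between the prepupa and 72 h. In forewings 867 were held, with the 90% interval of that step within −1 to 1, 617 had grown further, 497 had shrunk in part and 944 were not placed. In hindwings 480 were held, 655 had grown, 272 had shrunk and 784 were not placed. Of the held models, 649 of 867 in forewings and 313 of 480 in hindwings were falls. The 858 models with a lasting rise in both wings went from 2.48% ± 0.129 and 2.66% ± 0.120 of the counts in the larva to 17.3% ± 0.892 and 14.5% ± 0.898 in the prepupa and 22.1% ± 1.13 and 21.2% ± 0.838 at 72 h. The 967 lasting falls held 9.49% to 10.4% of the counts of larval forewings and 9.81% to 10.8% of larval hindwings, and went to 0.692% ± 0.0894 and 1.31% ± 0.225 and then to 1.29% ± 0.305 and 0.962% ± 0.228.

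Among models held in both wings, 000005F:3380135-3388431 had the largest rise. It stood at 2.94 CPM ± 0.0589 in larval forewings, 482, 542 and 419 CPM in the prepupa and 459, 447 and 327 CPM at 72 h. In hindwings it stood at 3.28, 4.01 and 3.14 CPM, then 299, 418 and 203 CPM, then 394, 566 and 325 CPM. The prepupal and 72 h libraries overlapped and both lay apart from the larva (72 h against 5th instar, log2 7.12 ± 0.34 and 6.94 ± 0.34, edgeR adjusted p = 2.59e-11 and 2.83e-11). Forewing levels of 000002F:3056019-3081470 were 22.8, 24.8 and 23.6 CPM in the larva, 434 CPM ± 22.3 in the prepupa and 489 CPM ± 102 at 72 h, and hindwing levels 23.9 CPM ± 1.75, 330 CPM ± 84.8 and 433 CPM ± 167 (log2 4.36 ± 0.26 and 4.18 ± 0.26, edgeR adjusted p = 2.53e-10 and 3.33e-10). In the late pupa both remained far above the larva, at 261 CPM ± 55.9 and 265 CPM ± 65.6 for 000005F:3380135-3388431 and 261 CPM ± 30.6 and 293 CPM ± 33.5 for 000002F:3056019-3081470.

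The held fall with the largest size was that of 000709F:1426-6020, which lies near the start of its contig. It stood at 49.4, 56.0 and 69.6 CPM in larval forewings and 0.902, 2.44 and 2.14 CPM at 72 h, and at 33.3, 39.1 and 44.4 CPM and 0.422, 1.04 and 1.74 CPM in hindwings. The prepupa was at 1.71 CPM ± 0.232 and 1.12 CPM ± 0.413 (72 h against 5th instar, log2 −4.97 ± 0.48 and −5.11 ± 0.51, edgeR adjusted p = 8.29e-08 and 1.08e-07; −5.80 in hindwings without 72 h number 3). A smaller held fall was that of 000305F:303065-309820, from 15.7 CPM ± 2.52 to 1.44 CPM ± 0.530 in the prepupa and 2.03, 1.06 and 1.42 CPM at 72 h in forewings, and in hindwings from 14.6 CPM ± 1.52 to 1.34 CPM ± 0.489 and 1.45 CPM ± 0.197 (log2 −3.39 ± 0.32 and −3.34 ± 0.33, edgeR adjusted p = 5.68e-08 and 9.20e-08). Larval libraries of both models lay above all libraries of the later stages.

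The returned models were those with a prepupal excursion. The median log2 change from the 5th instar to the prepupa was 1.52 in forewings and 1.54 in hindwings for returned rises, and 0.14 and 0.11 remained at 72 h. For returned falls it was −1.31 and −1.34, with −0.16 and −0.09 left. In comparison, lasting rises had prepupal medians of 3.01 and 2.89 and lasting falls −1.98 and −1.85. These medians are bounded by the rule that placed the models, and they are on the TMM scale. As shares of all counts, neither set returned in both wings was back at its larval value. The 129 rises went from 1.96% ± 0.0844 and 2.01% ± 0.0971 in the larva to 1.22% ± 0.268 and 1.05% ± 0.205 at 72 h. The 121 falls went from 0.892% ± 0.0252 and 0.962% ± 0.0251 to 0.506% ± 0.0166 and 0.428% ± 0.0607.

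The largest returned rise was that of 000168F:302257-313471. It stood at 10.5, 15.5 and 10.8 CPM in larval forewings, 681, 950 and 916 CPM in the prepupa and 13.2, 9.77 and 10.2 CPM at 72 h. In hindwings it stood at 8.44, 12.2 and 10.2 CPM, then 643, 1017 and 647 CPM, then 17.6, 11.7 and 8.42 CPM. The larval and 72 h values overlapped in both wings, and the prepupal values lay far above both. The prepupal rise was log2 6.11 ± 0.32 and 6.22 ± 0.32 (edgeR adjusted p = 8.65e-11 and 6.76e-11), and the difference left at 72 h was −0.15 ± 0.26 and 0.28 ± 0.26 (adjusted p = 0.649 and 0.385). In the late pupa it was up again, at 159 CPM ± 24.1 and 180 CPM ± 26.3.

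Similar courses were seen in 000078F:1828186-1836238, whose span overlaps another, and 000086F:1140041-1148510. The first stood at 19.1 CPM ± 0.952 in the larva, 797 CPM ± 319 in the prepupa and 16.0 CPM ± 1.34 at 72 h in forewings, and at 19.6 CPM ± 2.27, 764 CPM ± 262 and 20.2 CPM ± 2.93 in hindwings. The second stood at 115 CPM ± 17.3, 1955 CPM ± 359 and 172 CPM ± 50.9 in forewings and 115 CPM ± 23.9, 2953 CPM ± 260 and 124 CPM ± 27.6 in hindwings. The return of 000086F:1140041-1148510 was within the margin but not complete in forewings, where 72 h was still called higher than the larva (log2 0.58 ± 0.24, edgeR adjusted p = 0.0482). That call ended with 7 of the 12 libraries left out in turn (0.0527 to 0.277), with no filter on low counts (0.113) and without both libraries numbered 3 (0.233).

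Returned falls ran the other way. The model 000011F:1678297-1681415 stood at 555, 435 and 496 CPM in larval forewings, 23.6, 29.0 and 17.9 CPM in the prepupa and 421, 399 and 922 CPM at 72 h. In hindwings it stood at 488, 463 and 463 CPM, then between 16.8 and 25.4 CPM, then 275, 265 and 785 CPM, so that at 72 h number 3 lay above and the other hindwing libraries below the larva. The difference from the larva was log2 0.23 ± 0.43 and −0.09 ± 0.43 (edgeR adjusted p = 0.678 and 0.874), and without number 3 of the wing it was −0.27 and −0.80. The model 000013F:1526593-1547138, whose span overlaps another, went from 28.5 CPM ± 3.80 to 2.50 CPM ± 1.11 and back to 31.8 CPM ± 12.7 in forewings. Its hindwing levels were 36.1 CPM ± 3.75, 3.90 CPM ± 0.673 and 27.8 CPM ± 11.9. For 000665F:114684-121717 the levels were 27.4 CPM ± 3.33, 2.89 CPM ± 0.397 and 19.8 CPM ± 5.19 in forewings and 26.0 CPM ± 1.90, 4.95 CPM ± 1.60 and 17.1 CPM ± 1.72 in hindwings. In hindwings this left a called deficit (log2 −0.60 ± 0.23, edgeR adjusted p = 0.0339), a call that ended without larval hindwing number 1 or 3 or 72 h hindwing number 1 or 3 (0.0642 to 0.101), and also with DESeq2 size factors (0.111), the DESeq2 Wald test (0.0699), the compared groups alone (0.0814) and without both libraries numbered 3 (0.0664). With library totals alone several of these returned models were called lower than the larva.

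Crossed models swung past the larval level. The 168 models that rose and then crossed in both wings held 1.01% ± 0.0639 and 1.08% ± 0.0665 of the counts in the larva, 3.47% ± 0.430 and 5.14% ± 1.03 in the prepupa and 0.134% ± 0.0221 and 0.106% ± 0.0197 at 72 h. The 99 that fell and then crossed held 0.359% ± 0.0145 and 0.415% ± 0.0143, then 0.0290% ± 0.00164 and 0.0490% ± 0.00476, then 2.07% ± 0.191 and 2.23% ± 0.234. The model 000083F:567087-580747 had 27 larval counts in forewings and 26 in hindwings, stood at 101, 106 and 71.9 CPM and at 12.2, 14.7 and 1.87 CPM in the prepupa, and had 0 counts in all 6 libraries of 72 h. The larva was at least 4-fold and at least 3-fold higher than 72 h, and the prepupa at least 1014-fold and at least 72-fold higher. Its hindwing call between larva and 72 h (edgeR adjusted p = 0.0246) ended without larval hindwing number 1 (0.0538) or 72 h hindwing number 1 (0.0591) or 3 (0.0873), or both libraries numbered 3 (0.0930). The model 000023F:307038-316098, whose span overlaps another, had 21 and 19 larval counts and 0 counts at 72 h, and stood at 17.3 CPM ± 5.27 and 16.2 CPM ± 10.2 in the prepupa.

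In the opposite direction 2 nearby models on contig 000001F went together. The model 000001F:39389-45155 stood at 3.21, 2.02 and 2.50 CPM in larval forewings, had 1 count in the prepupa and stood at 57.6, 101 and 101 CPM at 72 h. In hindwings it stood at 3.03, 2.92 and 2.37 CPM, had 4 prepupal counts and reached 6.33, 30.0 and 196 CPM. Every 72 h library lay above every larval one, but the hindwing libraries were spread widely, with number 3 highest (72 h against 5th instar, log2 5.07 ± 0.81 and 4.80 ± 0.80, edgeR adjusted p = 3.33e-05 and 5.21e-05; 2.69 in hindwings without number 3). Next to it, 000001F:31407-35401 stood at 5.08 CPM ± 0.174 and 5.73 CPM ± 0.539 in the larva, 0.681 CPM ± 0.128 and 0.253 CPM ± 0.154 in the prepupa and 95.6, 188 and 184 CPM and 9.42, 55.4 and 362 CPM at 72 h. The order of the hindwing libraries was the same in both models (log2 4.94 ± 0.83 and 4.63 ± 0.82, edgeR adjusted p = 5.72e-05 and 9.46e-05; 2.49 in hindwings without number 3).

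**Figure D5:**
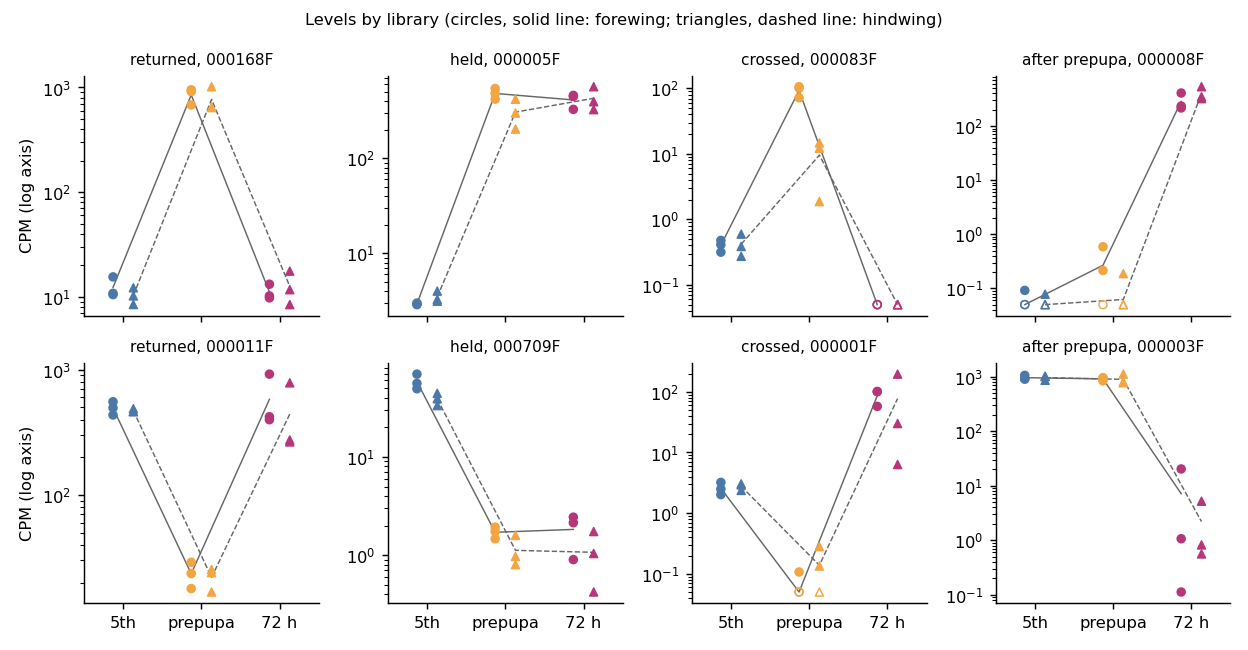
CPM by library (y axis, log scale) at the 5th instar, the prepupa and 72 h (x axis) for 8 models named by their contig and class; circles and solid lines are forewings, triangles and dashed lines hindwings, lines join means of 3 libraries and open symbols at 0.05 stand for values below it. Returned models meet their larval level at 72 h, held models stay at the prepupal level, and crossed models end on the other side of the larval level.

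A further set was not called between larva and prepupa and was called at 72 h against the larva with a log2 fold change of at least 1 in size. A missed call does not show that the prepupal level was the larval one. Forewings had 1814 such models, of which 1116 rose and 698 fell. Hindwings had 2324, with 1297 rises and 1027 falls. Calls of that size at 72 h covered 41.6% and 41.5% of all models tested. The direction was the same in both wings for 1262 of them. The 827 that rose in both held 1.78% ± 0.0584 and 1.92% ± 0.0398 of the counts in the larva, 0.724% ± 0.0606 and 1.02% ± 0.139 in the prepupa and 13.1% ± 3.41 and 14.9% ± 3.96 at 72 h. The prepupal shares were lower than the larval ones, whereas on the TMM scale the median log2 change by the prepupa over the 1116 and 1297 rises was 0.22 and 0.23. The models 000008F:873943-874911 and 000003F:5477416-5496176 belong here in both wings.

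Some models were placed in different classes in the wings. Of the models lasting in forewings, 489 were placed as changed after the prepupa in hindwings, and the reverse held for 112. The 185 rises of the 489 had median log2 changes of 2.09 in forewings and 0.76 in hindwings by the prepupa, and of 3.29 and 3.06 by 72 h. The 304 falls had −1.65 and −0.64 by the prepupa and −2.13 and −2.10 by 72 h. These sets were chosen by those calls, so the prepupal medians describe the choice, and hindwings had fewer prepupal calls of that size in all (4270 against 5748). A difference between the wings in the prepupal change was not tested. In the run on contig 000238F, 000238F:382989-387955, 000238F:575512-582415, 000238F:300560-303753 and 000238F:544850-569279 were among the 185, and 000238F:397096-402452 was lasting in both wings.

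Whether a model's change from the 5th instar to 72 h differed between the wings was tested directly, as an interaction term. In the fit without pairing 1 model was called, 0.00753% of those tested, and 362 had an unadjusted p below 0.05. This model, 000232F:434614-437944, stood at 1.64, 1.42 and 1.58 CPM in larval forewings and 11.3, 6.00 and 9.20 CPM in larval hindwings. At 72 h it stood at 168, 250 and 230 CPM in forewings and 125, 165 and 101 CPM in hindwings, after 0.397 CPM ± 0.377 and 0.542 CPM ± 0.269 in the prepupa. The larval wings did not overlap, and at 72 h the hindwing values lay below the forewing values. The rise was log2 7.12 ± 0.41 in forewings and 3.89 ± 0.35 in hindwings (edgeR adjusted p = 1.74e-10 and 3.15e-08), and the hindwing change minus the forewing change was −3.23 ± 0.47 (adjusted p = 0.0193). The call was lost in a fit of the compared groups alone, without both 72 h libraries numbered 3 (edgeR adjusted p = 0.0752) and with 8 of the 12 libraries left out in turn (0.0508 to 0.144).

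Wings of 1 stage and number varied together, so the interaction was also fitted with stage and number as a replicate block. That fit called 114 models, 53 with the more positive change in hindwings and 61 in forewings. It held 1575 models with an unadjusted p below 0.05, against 362 in the fit without pairing. For 000232F:434614-437944 it gave −3.20 ± 0.32 (edgeR adjusted p = 0.00177). The largest differences among its calls with a mean log2 CPM of at least 3 were chosen after their values were seen. Like 000232F:434614-437944, 000370F:236683-240018 rose more in forewings, from 0.410, 0.871 and 0.287 CPM to 121, 58.7 and 55.4 CPM, than in hindwings, from 2.83, 2.61 and 2.09 CPM to 86.1, 41.3 and 26.1 CPM (difference −2.95 ± 0.33, adjusted p = 0.00250 with the block and 0.607 without). The order of the numbers at 72 h was the same in both wings.

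In the other direction, 000112F:52023-55635 rose from 4.85, 7.97 and 8.04 CPM to 3855, 1428 and 6.94 CPM in forewings, and in hindwings from 4.12, 4.32 and 3.64 CPM to 12883, 6159 and 78.1 CPM. The difference was 3.15 ± 0.47 (edgeR adjusted p = 0.0101 with the block, not called without), and with the block the call ended without larval number 3 of the forewing (0.0594) or hindwing (0.0593). The forewing change, log2 7.98 ± 1.66, was 6.68 without 72 h number 1, and the hindwing change, 10.62 ± 1.84, was 9.58 without it. The model 000010F:2806225-2814159 stood at 8.67, 11.6 and 9.85 CPM in larval forewings and 4.42 CPM ± 0.538 in larval hindwings, and at 81.0, 20.4 and 2.49 CPM in forewings and 462, 119 and 1.83 CPM in hindwings at 72 h (difference 3.21 ± 0.48, adjusted p = 0.0101 with the block, not called without). Its forewing change was not called (log2 1.78 ± 1.04, adjusted p = 0.157) and was 0.18 without 72 h forewing number 1, and its hindwing change, 5.45 ± 1.21, was 3.74 without 72 h hindwing number 1. In forewings 72 h number 3 lay among the larval values for 000112F:52023-55635 and below them all for 000010F:2806225-2814159, and for the latter also in hindwings.

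Models that changed in a like direction lay side by side on their contigs. Of 2990 risen models with a tested neighbour, 1903 (63.6%) had a neighbour that also rose in both wings, against 37.1% of all 13200 tested models with a neighbour. Of 3362 fallen models, 2041 (60.7%) had a fallen neighbour, against 41.5%. Runs of 5 or more risen models numbered 43 and held 257 models, and runs of 5 or more fallen models numbered 56 and held 321. After the run on 000238F, 3 risen runs had 8 models, and the longest fallen runs, 4 of them, had 9. Neighbouring models may be pieces of 1 gene or copies, which was not analysed here.

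The runs taken from those ties by contig order differ from that on 000238F. On contig 000035F, positions 1700180 to 1798790, the 8 models went from 0.0214% ± 0.00207 and 0.0252% ± 0.00301 of the counts to 0.0747% ± 0.0308 and 0.0705% ± 0.0346 at 72 h, and 7 of 8 were already called higher in the prepupa in each wing. On contig 000063F, positions 403869 to 580556, the 9 fallen models were called lower in the prepupa as well, 9 of 9 in forewings and 8 of 9 in hindwings. Their most abundant members, 000063F:564860-580556 and 000063F:507824-514626, fell by 3.36 and 4.57 on the log2 scale in forewings and by 3.65 and 4.80 in hindwings (edgeR adjusted p from 1.21e-10 to 6.14e-09). On contig 000024F, positions 208403 to 449565, 7 of 9 fallen models were called lower in the prepupa and 2 higher, in each wing. The 2 were 000024F:403443-407862, at 2206 and 1871 CPM in the larva, 3261 and 2806 CPM in the prepupa and 1147 CPM in either wing at 72 h, and 000024F:411566-415352, at 917 and 783 CPM, then 1361 and 1163 CPM, then 503 and 497 CPM. These levels are on the TMM scale. As a share of counts the 9 models fell by the prepupa, from 0.578% ± 0.0104 to 0.280% ± 0.0253 in forewings. In hindwings their share went from 0.518% ± 0.0233 to 0.353% ± 0.0706.

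Risen and fallen models also differed in the length of their spans and in their larval level. The median span was 7186 bases for risen and 6049 bases for fallen models, against 6181 bases over all models tested, and 15.7% and 21.6% of them overlapped another model, against 19.6%. The 500 models with a log2 rise of at least 5 in both wings had a median log2 CPM of −1.43 in the larva and 6.55 at 72 h. The 83 with a fall of that size had 4.57 and −1.44. No test was made of these differences.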

How the data were processed

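Poly-A RNA of whole wings was sequenced. The table the authors deposited holds unnormalized counts of 24 wing libraries, as whole reads for each gene model. TopHat, bedtools and DESeq2 are named in the submitters' processing notes, without version or role. Genome build, annotation release and strandedness of counting were not given in the sources used here. Positions are 1-based: the lowest first position, shared by 12 models, is 1.

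From the counts, filterByExpr of edgeR 4.0.16 (R 4.3.3; minimum count 10, minimum total 15) kept 13282 models. TMM factors averaged 1.67 and 1.75 in the 5th instar, 0.590 and 0.870 in the prepupa and 0.953 and 0.844 at 72 h, forewing first. They enter every CPM and fold change. A quasi-likelihood model with a mean for each of 8 groups was fitted to all 24 libraries (common biological coefficient of variation 38.7%). Tests were two-sided, with Benjamini-Hochberg adjustment over all models tested. Errors of log2 fold changes are SE, from the fold change and the square root of its F statistic; errors of CPM and percent are SD of 3 libraries. Intervals used to place models are 90% Wald intervals of the fit. Ratios on 1 to 3 counts have exact 95% intervals, and bounds use a floor of 3 counts over the group; both cover counting error only. The procedure was tested on simulated data.

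The comparison, the classes and the rule for named models were chosen with earlier results of these data known. The rule took, for both wings in 1 direction, the largest rises and falls with at least 10 counts in the lower group, the largest returned, held and crossed changes, the most abundant risen and fallen models, models with a wing difference, and the longest runs. A part of it for models with 3 or fewer counts named none at a mean log2 CPM of 3, so these were named without that minimum, after the values were seen. Gene lists were planned but need gene names, and were not used.

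The numbers in the labels were checked by the correlation, across models, of deviations from the group mean. Wings of 1 stage and number correlated at 0.517 to 0.765 (12 pairs), so they were treated as pairs in the alternative fit of the wing difference. The main fit, with a mean for each group, did not use these pairs. Wings of different numbers correlated at −0.588 to −0.138. Deviations from a group mean sum to 0, so these negative values are tied to the positive ones and are no separate evidence. Libraries of the 5th instar and 72 h with 1 number lay between −0.0877 and 0.0104 (6 pairs) and share only a number. Alternatives were DESeq2 (1.42.0) and its size factors, library totals, no filter, the compared groups alone, a replicate block, each library left out, 72 h libraries numbered 3 left out, a stricter threshold and other margins.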

Additional observations from a re-analysis of the deposited data

Results flagged for a closer look

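The change of 000232F:434614-437944 from the 5th instar to 72 h differed between forewings and hindwings in the edgeR interaction test without pairing. The log2 difference, hindwing minus forewing, was −3.23 ± 0.47 (edgeR adjusted p = 0.0193). The value ranged from −3.52 with library totals alone to −3.01 without larval hindwing number 1, and was higher in forewings under every alternative run. At 72 h the wings were near each other, at 216 CPM ± 42.7 and 131 CPM ± 32.3, while the larval levels were 1.55 CPM ± 0.113 and 8.82 CPM ± 2.66.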

How the results depend on the processing

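Counts of called models, of both-wing calls and of crossed and late-changing models stayed within 1.5 times of the reported ones under each alternative run. Library totals alone gave 1145 returned models in forewings and 5128 and 5191 lasting models in forewings and hindwings. Wing differences of the change were called for 0 models in the compared groups alone, 14 with the DESeq2 Wald test, 114 with the replicate block, 0 without both 72 h libraries numbered 3, 0 at an adjusted p below 0.01, and 0 to 2 with single libraries left out. At an unadjusted p below 0.05 these edgeR fits held 305, 883, 362 and 294 to 1033 models for the compared groups, the libraries numbered 3, the stricter threshold and the single libraries. With the replicate block of stage and number, 1575 models had an unadjusted p below 0.05. Margins of 0.5 and 1.5 gave 99 and 1194 returned models in forewings and 60 and 697 in hindwings. For the counts of called models the block was the number alone, shared by all stages, and not stage and number. With it 7490 models were called in forewings (3473 higher) and 7391 in hindwings (3412 higher), and no call of a named model ended. Since numbers of the 5th instar and 72 h are not shown to pair samples, the fit with number alone is given only here.

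Signs turned only for returned models, whose difference from the larva was near 0. With DESeq2 size factors, the DESeq2 Wald test and the compared groups alone, 000011F:1678297-1681415 was at 0.05 in hindwings, and with no filter 000078F:1828186-1836238 was at −0.05 in hindwings. With library totals alone the forewing values were −0.19 for 000086F:1140041-1148510, −0.53 for 000011F:1678297-1681415 and −0.68 for 000013F:1526593-1547138, and the hindwing values −0.82 for 000168F:302257-313471, −1.04 for 000078F:1828186-1836238 and −0.90 for 000086F:1140041-1148510. Those hindwing values, and the forewing value of 000013F:1526593-1547138, were called lower than the larva (edgeR adjusted p = 0.00203 to 0.0477). With these totals 000168F:302257-313471, 000078F:1828186-1836238 and 000665F:114684-121717 were also called lower in forewings at −0.97, −1.07 and −1.30, and 000013F:1526593-1547138 and 000665F:114684-121717 in hindwings at −1.46 and −1.66, so that return to the larval level rests on the scaling. Without both 72 h libraries numbered 3, 000086F:1140041-1148510 was at −0.08 in hindwings and 000011F:1678297-1681415 at −0.27 in forewings. With single libraries left out, forewing values were between −0.30 and 0.05 for 000168F:302257-313471, −0.27 and 0.44 for 000011F:1678297-1681415 and −0.15 and 0.43 for 000013F:1526593-1547138. Hindwing values were between −0.05 and 0.51 for 000168F:302257-313471, −0.07 and 0.14 for 000078F:1828186-1836238, −0.08 and 0.28 for 000086F:1140041-1148510 and −0.80 and 0.17 for 000011F:1678297-1681415.

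Depth was 5795618 to 21284939 counts per library. The genes behind the models, their copies and their exons were not analysed here, and counts of overlapping models are uncertain.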

Other observations

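The single model called in opposite directions in the wings was 000008F:2189160-2201846, a model of low abundance. It stood at 1.91, 0.779 and 2.33 CPM in larval forewings and 0.338, 0.407 and 0.0890 CPM at 72 h, and at 0.0993, 0.0779 and 0.110 CPM in larval hindwings and 1.13, 1.25 and 0.183 CPM at 72 h. Its log2 fold change was −2.55 ± 0.73 in forewings and 2.94 ± 0.83 in hindwings (edgeR adjusted p = 0.00700 and 0.00635), on 6 counts in larval hindwings and 9 in 72 h forewings. The groups did not overlap in either wing, and both calls remained with each of the 12 libraries left out in turn. The difference of the changes, 5.47 ± 0.57 with wings paired (adjusted p = 0.00300) and 5.50 ± 1.10 unpaired (adjusted p = 0.210), was called only with the pairing.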
